A study of Homo sapiens with 16 samples.

Results

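The 77 genes described here encode the proteins of the cytosolic ribosome, and they were measured by RNA sequencing of polyadenylated RNA from A549-CD63-Nluc cells. The genes were chosen by name: symbols made of RPL or RPS and a number, with A or X allowed after it, plus RPLP0, RPLP1, RPLP2 and RPSA. Of these genes, 46 belong to the large subunit and 31 to the small subunit, out of 26156 gene names with a value above 0 in any library. All 77 passed the filter that left 15958 genes for testing (at least 1 TPM, a share of all transcripts corrected for their length, in at least 2 libraries), and the lowest value of any of them in any library was 195 TPM. A549 is a human lung cancer cell line, and every group, the controls included, carried the same overexpressed fusion of CD63, a tetraspanin of exosomes, with the Nluc luciferase. Cells were treated with 5G6, 6D7 or 7F8, compounds known here by code name only, or with the solvent DMSO, for 4 h or for 48 h. The labels print a dose of 4 µM for each treatment, DMSO included. Each of the 8 groups had 2 libraries, 16 in all, which the series' design text calls biological replicates. Whether the fusion line is a single clone is not given in the sources used here.

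Each ribosome is built from ribosomal RNA and one copy of nearly every ribosomal protein, the acidic stalk proteins being present in several copies, so that a growing cell keeps the messages of these genes abundant and in near-fixed proportion. Most of these messages start with a C followed by a run of pyrimidines, the 5' terminal oligopyrimidine (TOP) tract, through which the kinase complex mTORC1 and the protein LARP1 govern how well they are translated and how stable they are. The series' title places the study on exosome release and on AMPK and SREBP factors, and AMPK is a known inhibitor of mTORC1.

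The sequences around the start sites are given for some of the genes on which the results turn, and all of these but RPS26 show the tract. Each line gives the 15 bases before the RefSeq start and the 15 bases from it, 5' to 3' on the gene's strand, in GRCh38.p14, with an unbroken pyrimidine run that begins with C at the start in capitals. The first 4 genes form the stalk of the large subunit and its base, RPL28 and RPS26 varied most among the members, RPL39 and RPL22 have paralogs that are described later, and TPT1 is another TOP message, one that was called.
RPL12 (chr9:127451392-127451421, minus strand): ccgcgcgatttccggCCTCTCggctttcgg
RPLP0 (chr12:120201097-120201126, minus strand): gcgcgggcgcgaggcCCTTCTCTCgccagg
RPLP1 (chr15:69452803-69452832, plus strand): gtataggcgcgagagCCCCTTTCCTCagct
RPLP2 (chr11:809952-809981, plus strand): ttgcgtcggcgccttCCTTTTCCTCCCTgt
RPL28 (chr19:55385917-55385946, plus strand): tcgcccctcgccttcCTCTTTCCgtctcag
RPS26 (chr12:56041903-56041932, plus strand): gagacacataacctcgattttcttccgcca
RPL39 (chrX:119791616-119791645, minus strand): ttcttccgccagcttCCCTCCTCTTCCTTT
RPL22 (chr1:6199581-6199610, minus strand): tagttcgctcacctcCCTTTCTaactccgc
RPL22L1 (chr3:170870181-170870210, minus strand): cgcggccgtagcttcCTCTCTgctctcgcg
TPT1 (chr13:45341169-45341198, minus strand): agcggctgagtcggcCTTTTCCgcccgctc

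Promoter entries from RefSeq, 250 bases before to 50 after the start, matched 62 of the 77 members, and a gene was counted when any of its listed starts held the motif. A C at the start with 4 pyrimidines after it, read on the gene's strand, was found in 46 of the 62 members, which is 74.2%, against 5.14% of all 27305 genes with an entry and 7.10% of the 11264 tested genes with one. The median run among the members that held one was 8 bases, and the longest, in RPL39, was 19 bases. When the C could lie within 10 bases of the start, the counts were 57 of 62 members (91.9%), 38.4% of all genes and 41.9% of tested genes, and RPS26, which has no such run at its listed start, has a run of pyrimidines a few bases downstream of it. The GABP core CCGGAAG, searched on both strands, stood in 22 of 62 members (35.5%), in 12.2% of all genes and in 21.2% of tested genes, and its reverse complement can overlap the tract. The YY1 core AAGATGGC stood in 6 of 62 members (9.68%), in 3.52% of all genes and in 6.08% of tested genes, searched on both strands. The E-box CACGTG stood in 4 members (6.45%), in 8.77% of all genes and in 12.5% of tested genes, and TATAAA in 5 members (8.06%), in 14% of all genes and in 8.35% of tested genes, both searched on both strands. These matches describe letters in a window.

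Depth, taken as the highest ratio of coverage to FPKM among genes above 1 FPKM, ran between 6.10 and 8.86 aligned gigabases per library. Mitochondrial transcripts took 6.13% and 6.48% of TPM in the 6D7 48 h libraries and between 18.9% and 32.5% in the other 14, so they were left out and the rest rescaled to a constant sum. Replicates of 1 group also differed from each other, in a direction that varied between groups. Of the 77 members, 68 were higher in replicate 1 than in replicate 2 with 6D7 at 48 h, 67 with 5G6 at 4 h, 56 with 5G6 at 48 h and 63 with DMSO at 48 h. That number was 17 with 6D7 at 4 h, 22 with 7F8 at 4 h, 24 with DMSO at 4 h and 33 with 7F8 at 48 h. Of the A549 markers, KRT8, KRT18, AKR1B10 and CD63, the last being the gene of the overexpressed fusion, were above 700 TPM in every library. The others listed were lower: KRT19 at 16.7 to 391 TPM, CDH1 at 10.2 to 51.6 TPM and EPCAM at 0.375 to 11.4 TPM. The alveolar type II markers SFTPC, SFTPB and NKX2-1 were at most 0.504 TPM and SFTPA1 was listed at 0, while of the immune, fibroblast and endothelial markers only CD14 (up to 11.3 TPM) and COL1A1 (up to 20.8 TPM) passed 1 TPM.

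Ribosomal protein messages made up between 13.8% and 18.7% of all non-mitochondrial TPM in a library, with a median of 17.2%. At 4 h the shares were 17.4% and 15.1% with 5G6, 16.4% and 17.7% with 6D7, 17.7% and 18.7% with 7F8, and 17.2% and 18.0% with DMSO. At 48 h they were 15.6% and 13.8% with 5G6, 17.4% and 14% with 6D7, 17.2% and 17.4% with 7F8, and 16.3% and 14.7% with DMSO. At 48 h both 7F8 libraries lay above both DMSO libraries, one 6D7 library lay above and the other below them, both 5G6 libraries lay below the higher DMSO library, and at 4 h no compound lay wholly outside it. As means the 48 h shares were 14.7% ± 1.25 with 5G6, 15.7% ± 2.40 with 6D7, 17.3% ± 0.144 with 7F8 and 15.5% ± 1.15 with DMSO (SD, n = 2 each). In bulk RNA, fewer cells of a kind and less RNA per cell cannot be told apart. The large subunit genes summed to between 1.15 and 1.24 times the small subunit genes in every library, and the 31 named pseudogenes of the members summed to 184 to 245 TPM, near-identical copies whose reads can be shared with the members.

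**Figure D1:**
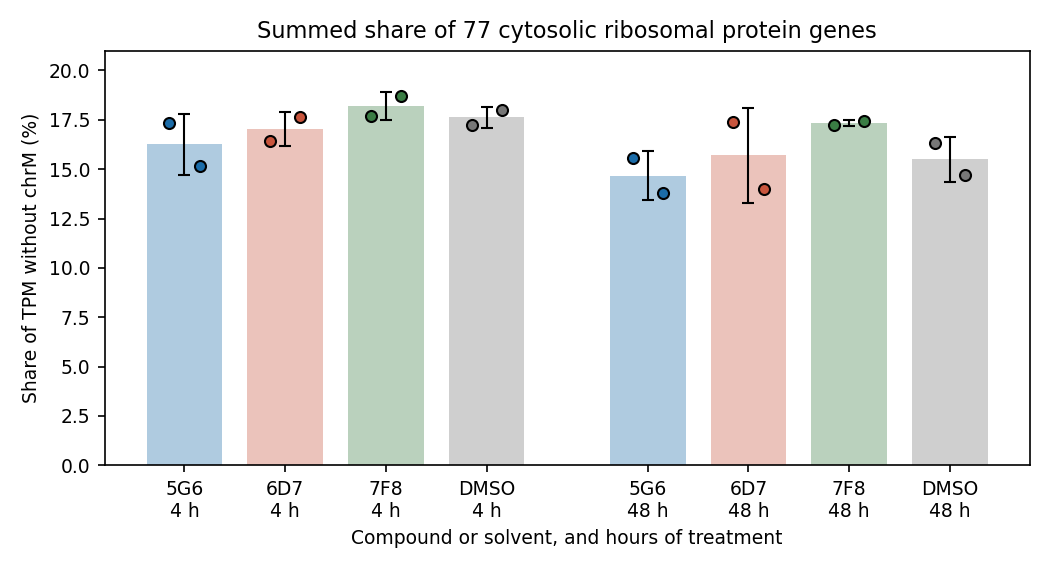
Share of non-mitochondrial TPM (%, vertical axis from 0) taken by the 77 genes in each of the 8 groups; points are libraries, bars are means and whiskers are SD (n = 2). The 7F8 points at 48 h lie at 17.2% and 17.4%, above the DMSO points at 16.3% and 14.7%.

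The members differed in level far more than any member differed between groups. Means over the 16 libraries ran from 259.5 TPM for RPL37 to 7295 TPM for RPS16, a protein of the small subunit, a 28.1-fold span with a median of 1965 TPM. TPM is a level per transcript length, and that length depends on the transcripts the authors' assembler assigned to a gene. The ratio of coverage to FPKM, which moves with this assignment, differed between members, so the span and the order of levels are approximate. RPL13A (6070 TPM) and RPS19 (5427 TPM), the gene mutated most often in Diamond-Blackfan anaemia, followed RPS16, and RPL22 (326 TPM), RPL27A (394 TPM) and RPS26 (413 TPM) were nearest to RPL37. The order of the 77 members was nearly the same in every library, with a Spearman rho between 0.948 and 0.998 over the 120 pairs of libraries, which share the gene annotation and the library protocol. Across the 8 group means the members spanned between 0.20 and 0.84 on the log2 scale. Among the narrowest were RPL15 (0.20), RPL19 (0.22), RPL30 (0.24) and RPL39 (0.25), and the widest were RPS26 (0.84), RPL28 (0.83), RPL34 (0.74), RPLP1 (0.69) and RPSA (0.65).

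**Figure D2:**
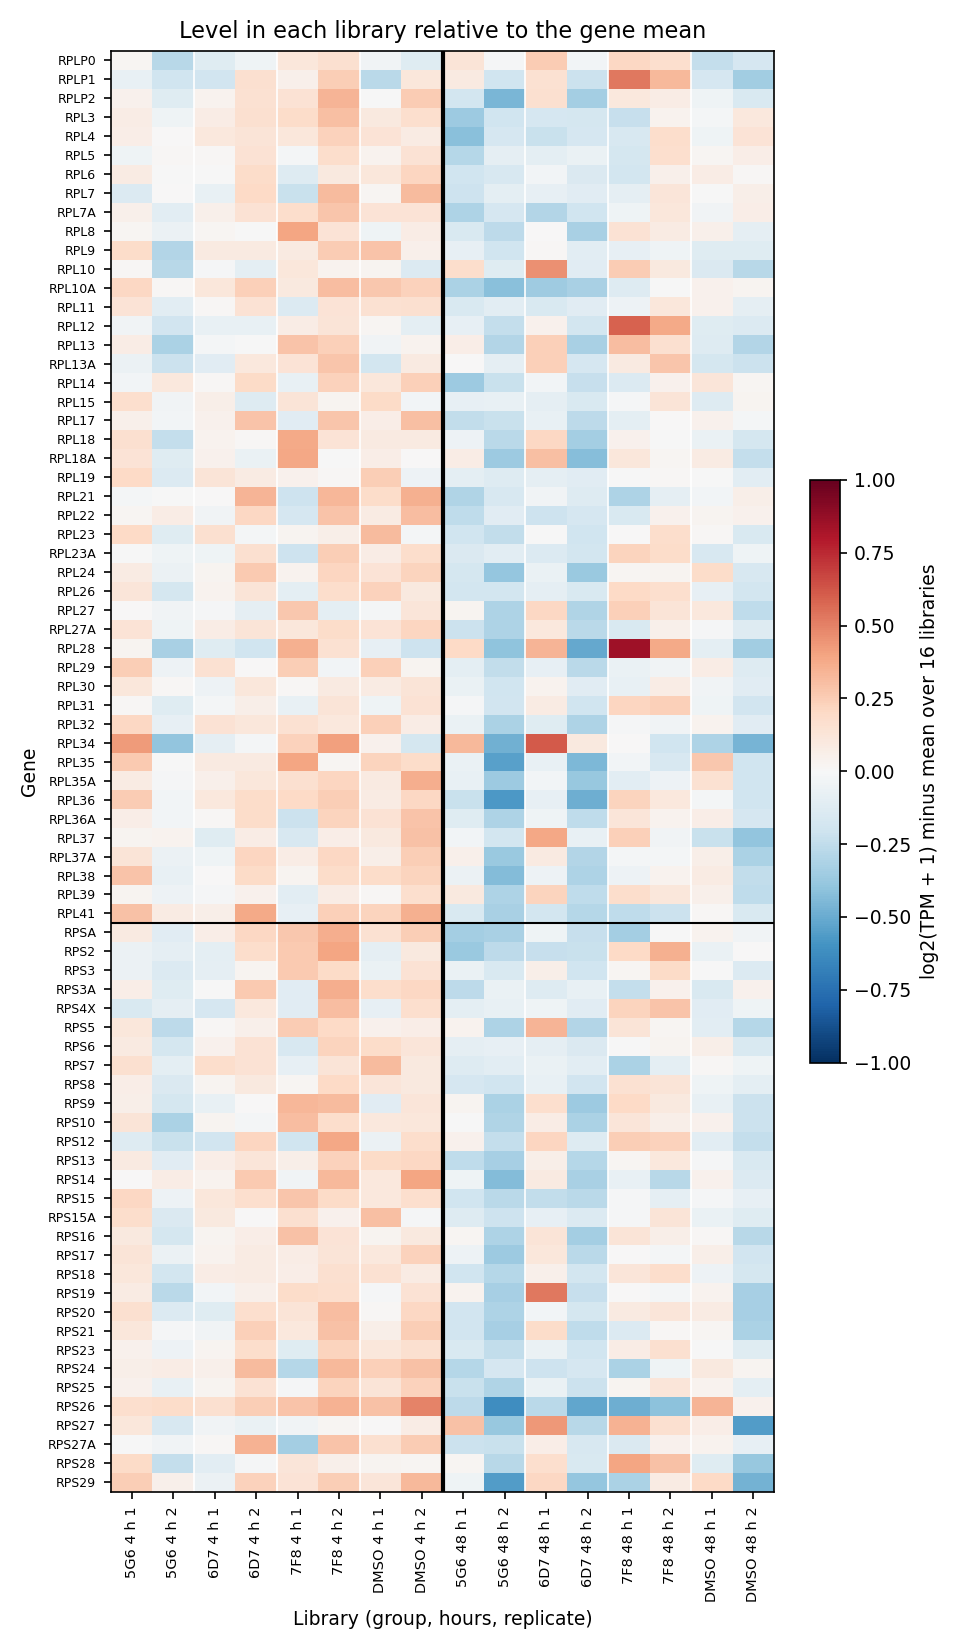
Each row is one of 76 of the 77 genes and each column one of the 16 libraries; colour is log2(TPM + 1) minus the gene's mean over the libraries, with the compounds left of DMSO at 4 h (left of the black line) and at 48 h. RPL12, RPLP1 and RPL28 are reddest in the 7F8 48 h libraries, and RPS26 is blue in the 6 libraries of compounds at 48 h.

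Changes were tested gene by gene with limma on log2(TPM + 1), with Benjamini-Hochberg adjustment over all 15958 genes, and a gene was called below 0.05. Two-sided p-values here set a difference between groups against the spread between replicate libraries, pooled over all 8 groups. At 4 h no member was called with 5G6, 6D7 or 7F8, and percent called over all genes was 0 in each of these comparisons. Members with an unadjusted p below 0.05 numbered 0 with 5G6, 0 with 6D7 and 1 with 7F8, against 3.25%, 1.13% and 5.43% of all genes. The exception was RPS2, which borders the channel where mRNA enters the small subunit, at 5315 and 5847 TPM with 7F8 and 4173 and 4766 TPM with DMSO. Its 4 h libraries did not overlap, and its log2 difference was 0.32 ± 0.14 (SE, limma adjusted p = 0.913).

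On the TPM scale the members lay close to their DMSO level at 4 h, with intervals that were narrow for a design of this size. The median log2 difference of the 77 members was -0.13 with 5G6 and -0.06 with 6D7, beside 0.11 and 0.01 for all genes tested. The members' median minus that of all genes was -0.23 with 5G6. With 5G6, 76 of 77 members had a log2 difference below 0, while 66.3% of all genes had one above 0. Both 5G6 libraries lay below both DMSO libraries for 31 members, against 7.9% of all genes, and above both for 0, against 22.6%. Without 5G6 replicate 2 the 5G6 median was -0.04, and without 5G6 replicate 1 it was -0.21. With 6D7, 69 members lay below 0, while 51.8% of all genes lay above 0. Both 6D7 libraries lay below both DMSO libraries for 13 members, against 9.49% of all genes, and above both for 0, against 12.5%. The smallest p-values belonged to RPL21, RPS13 and RPS25 with 5G6 and to RPL37, RPS26 and RPL35A with 6D7, each with a limma adjusted p of 1. With 7F8 the median was -0.01 beside -0.11 for all genes, and 41 members lay below 0, or 20 with median-of-ratios scaling, which uses the median gene in place of the TPM total. On the TPM scale 36 members and 35.4% of all genes lay above 0. Both 7F8 libraries lay above both DMSO libraries for 21 members, against 10.1% of all genes, and below both for 3 members, against 23.4%. RPS9, of the small subunit, had 3845 and 3792 TPM with 7F8, against 2820 and 3306 TPM with DMSO, without overlap (log2 difference 0.32 ± 0.19, SE, limma adjusted p = 0.960), and RPL8 had the third smallest p. The 95% interval of the log2 difference had a median half-width of 0.37 and stayed within a 2-fold change either way for all 77 members with 5G6 and with 6D7, and for 75 with 7F8, the exceptions being RPL28 and RPL34.

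**Figure D3:**
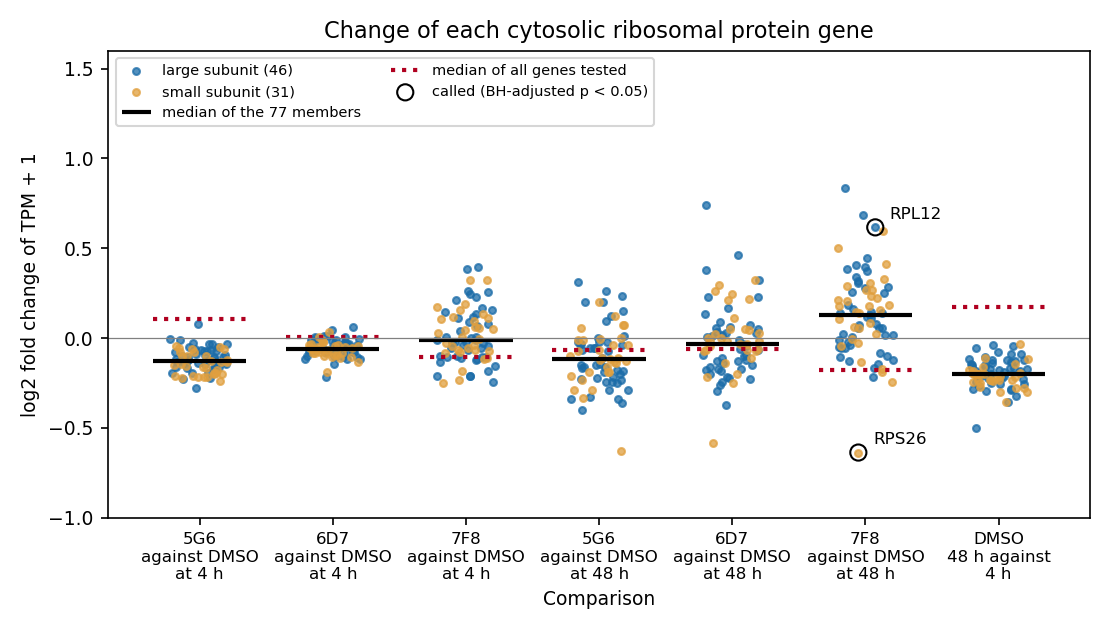
Each point is the log2 fold change of one of the 77 genes in the comparison named on the horizontal axis, black lines are medians of the members and dotted red lines medians of all genes tested. RPL12 and RPS26, circled, are called, and the members' median lies above that of all genes with 7F8 at 48 h (0.13 beside -0.18) and below it in DMSO at 48 h against 4 h (-0.20 beside 0.17).

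At 48 h, in the fit without a term for replicate number, 7F8 was the compound with called members. RPL12 rose and RPS26 fell, 2 of 77 members, where 8.79% of all genes were called. By direction these are 1 member of 77 higher, where 2.29% of all genes were, and 1 lower, where 6.5% were. Unadjusted p-values below 0.05 were found for 9 members on the higher side and 1 on the lower side, against 24.6% of all genes in either direction. Both 7F8 libraries lay above both DMSO libraries for 37 members, against 16.7% of all genes, and below both for 6 members, against 38.7% of all genes. The members' median log2 difference was 0.13 and that of all genes -0.18, with 55 of 77 members above 0, against 35.8% of all genes. Median-of-ratios scaling gave 0.34 for the members and 0.00 for all genes, with 74 members above 0. That scaling also brought the all-gene median to 0.01 with 5G6 at 4 h and to 0.03 in DMSO at 48 h against 4 h. Without DMSO 48 h replicate 1 the members' median was 0.24, and without each other library of the comparison in turn it was between 0.0496 and 0.14.

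RPL12, at the base of the stalk where translation factors bind the large subunit, had 3843 and 3324 TPM with 7F8 at 48 h, against 2342 and 2320 TPM with DMSO. Both 7F8 libraries were above every other library of the series, and the DMSO libraries were close to each other. The gene lies on chromosome 9 from 127447674 to 127451406 on the minus strand of GRCh38, and its log2 difference was 0.62 ± 0.14 (SE, limma adjusted p = 0.0205), a 1.53-fold rise with a 95% interval of 0.31 to 0.92 on the log2 scale. With 5G6 it had 2404 and 2162 TPM and with 6D7 2631 and 2245 TPM at 48 h, around the DMSO values. The RPL12 call was lost without DMSO 48 h replicate 1 (0.62, limma adjusted p = 0.118), without DMSO 48 h replicate 2 (0.61, limma adjusted p = 0.0945) and without 7F8 48 h replicate 1 (0.51, limma adjusted p = 0.185). It was also lost with mitochondrial transcripts kept, with no filter on low values, with no variance trend and with the 48 h libraries alone, while median-of-ratios scaling kept it (0.83, limma adjusted p = 0.0339).

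The stalk proteins RPLP0, RPLP1 and RPLP2 recruit the elongation factors to the ribosome, and none of them was called in any comparison with DMSO. RPLP1 had 5201 and 4501 TPM with 7F8 at 48 h, against 3205 and 2824 TPM with DMSO. These 7F8 values were above every other library of the series, and the log2 difference of 0.69 ± 0.20 (SE) had a limma adjusted p = 0.0530. RPLP0 had 4482 and 4373 TPM with 7F8, against 3288 and 3449 TPM with DMSO, a log2 difference of 0.39 ± 0.15 (SE, limma adjusted p = 0.120). At 48 h RPLP0 was also above both DMSO libraries in the 5G6 libraries (4238 and 3857 TPM) and the 6D7 libraries (4641 and 3819 TPM). RPLP2 had 3197 and 3128 TPM with 7F8, 2615 and 2166 TPM with 5G6, 3314 and 2351 TPM with 6D7 and 2893 and 2681 TPM with DMSO, so that it overlapped DMSO with 6D7, lay above it with 7F8 and below it with 5G6. RPL28, a protein of the large subunit alone, had 1488 and 1074 TPM with 7F8 at 48 h, against 773 and 649 TPM with DMSO, a log2 difference of 0.83 ± 0.28 (SE, limma adjusted p = 0.0882). The ratio of coverage to FPKM of RPL28, which moves with the transcripts the authors' assembler assigned to the gene, ranged over 0.36 on the log2 scale. RPS28, in the small subunit beside the mRNA exit, had 816 and 757 TPM with 7F8, against 570 and 475 TPM with DMSO (log2 difference 0.59 ± 0.18, SE, limma adjusted p = 0.0638).

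RPS26 lines the channel through which mRNA leaves the small subunit, and it was the member that fell with 7F8 at 48 h. It had 286 and 302 TPM with 7F8, against 509 and 412 TPM with DMSO. Its log2 difference was -0.64 ± 0.17 (SE, limma adjusted p = 0.0357), and the gene lies on chromosome 12 from 56041918 to 56044697 on the plus strand of GRCh38. With 5G6 it had 334 and 261 TPM and with 6D7 333 and 280 TPM at 48 h, so that all 6 libraries of compounds lay below both DMSO libraries. The log2 difference was -0.63 ± 0.17 with 5G6 (SE, limma adjusted p = 0.0583) and -0.58 ± 0.17 with 6D7 (SE, limma adjusted p = 0.0633), and these comparisons share the DMSO libraries. At 4 h RPS26 had 451 and 456 TPM with 5G6, 449 and 477 TPM with 6D7, 489 and 512 TPM with 7F8, and 491 and 566 TPM with DMSO. The 7F8 call was lost when any one of the 4 libraries was left out: the limma adjusted p was 0.230 without DMSO 48 h replicate 1, 0.0602 without DMSO 48 h replicate 2, 0.214 without 7F8 48 h replicate 1 and 0.0881 without 7F8 48 h replicate 2. With median-of-ratios scaling the RPS26 difference with 7F8 was -0.42 (limma adjusted p = 0.317), and the call was also lost with mitochondrial transcripts kept, with FPKM, with no variance trend and with the 48 h libraries alone.

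**Figure D4:**
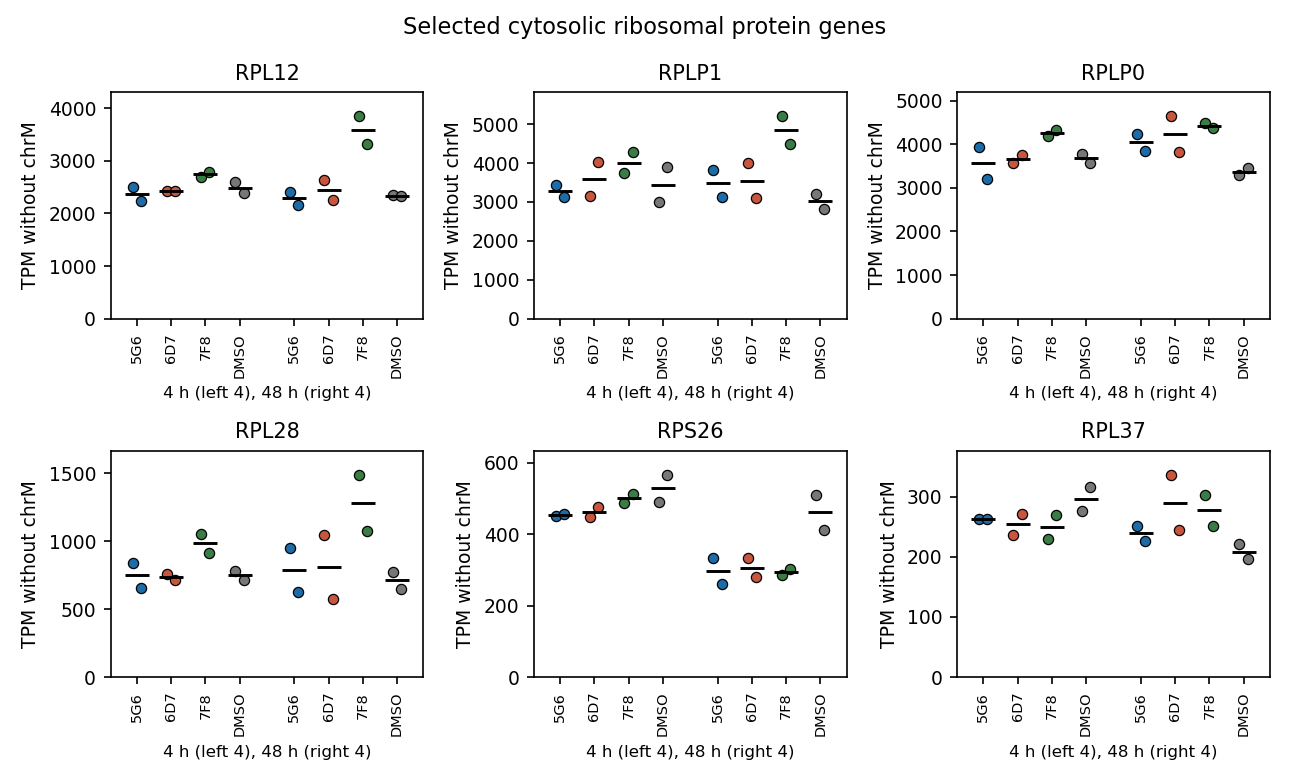
TPM without mitochondrial transcripts (vertical axes from 0) of RPL12, RPLP1, RPLP0, RPL28, RPS26 and RPL37 in each library; points are libraries, black lines are group means, and the compounds stand left of DMSO at each hour. RPL12 reaches 3843 and 3324 TPM with 7F8 at 48 h, and RPS26 stays at or under 334 TPM with every compound at 48 h, against 509 and 412 TPM with DMSO.

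With 5G6 and 6D7 at 48 h no member was called in the fit without a term for replicate number. Adding that number as a block called a member lower with each compound and raised the calls over all genes, as given at the end. Without it, over all genes 4.06% were called with 5G6 (1.95% higher and 2.11% lower) and 5.97% with 6D7 (2.39% higher and 3.58% lower). Unadjusted p-values below 0.05 were found for 6 members on the lower side with 5G6, and for 3 on the higher and 2 on the lower side with 6D7, against 19.0% and 21.5% of all genes. The members' median log2 difference was -0.12 with 5G6 and -0.03 with 6D7, beside -0.07 and -0.06 for all genes. Without single libraries the median ran between -0.20 and -0.04 with 5G6, and between -0.15 (without 6D7 48 h replicate 1) and 0.04 (without 6D7 48 h replicate 2) with 6D7. With 5G6, 63 of 77 members lay below 0, but 42 did with median-of-ratios scaling. With 6D7, 45 members lay below 0, but 28 did with that scaling. Both 5G6 libraries lay below both DMSO libraries for 32 members, against 28.7% of all genes, and above both for 4, against 20% of all genes. For 6D7 the counts were 20 below, against 27.1% of all genes, and 6 above, against 20.7%.

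Among the members with the smallest p in these comparisons, RPL10A, the protein of the flexible L1 stalk that moves with the leaving tRNA, had 1015 and 943 TPM with 5G6, 989 and 1009 TPM with 6D7 and 1298 and 1287 TPM with DMSO at 48 h. All 4 libraries of these compounds lay below DMSO, with log2 differences of -0.40 ± 0.14 with 5G6 (SE, limma adjusted p = 0.129) and -0.37 ± 0.14 with 6D7 (SE, limma adjusted p = 0.135). RPL14, of the large subunit, had 873 and 966 TPM with 5G6, against 1224 and 1142 TPM with DMSO (log2 difference -0.36 ± 0.15, SE, limma adjusted p = 0.224). RPL34, of the large subunit, had 961 and 673 TPM with 6D7, against 508 and 455 TPM with DMSO (log2 difference 0.74 ± 0.29, SE, limma adjusted p = 0.166). Its ratio of coverage to FPKM moved over 0.59 on the log2 scale between libraries, the widest of the members, and the part of this in the result was not tested. The 95% intervals at 48 h stayed within a 2-fold change for all 77 members with 5G6, for 76 with 6D7 (not RPL34) and for 73 with 7F8 (not RPL28, RPLP1, RPS26 or RPS27). With all libraries the log2 difference with 6D7 was 0.38 ± 0.19 for RPL10 (SE, limma adjusted p = 0.285) and 0.46 ± 0.18 for RPL37 (SE, limma adjusted p = 0.167). Without 6D7 48 h replicate 2 it was 0.67 for RPL10 and 0.69 for RPL37.

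With time in DMSO the members lay on one side. All 77 had a lower mean in the DMSO libraries at 48 h than at 4 h, while 73.0% of all genes had a higher one. For 48 members both 48 h libraries lay below both 4 h libraries, against 7.16% of all genes. None had both 48 h libraries above, against 28.6% of all genes. No member was called, and percent called over all genes was 0. Only RPL37 had an unadjusted p below 0.05, against 2.35% of all genes. The median log2 difference was -0.20 for the members and 0.17 for all genes, and -0.38 for the members with median-of-ratios scaling, and without DMSO 48 h replicate 1 it was -0.27. RPL37, of the large subunit, had 221 and 195 TPM at 48 h, against 275 and 316 TPM at 4 h, a log2 difference of -0.50 ± 0.18 (SE, limma adjusted p = 0.944). RPL41, the shortest ribosomal protein, had 1887 and 1680 TPM at 48 h, against 2181 and 2385 TPM at 4 h (log2 difference -0.36 ± 0.16, SE, limma adjusted p = 0.944). RPL26, of the large subunit, had 2815 and 2628 TPM at 48 h, against 3486 and 3194 TPM at 4 h (log2 difference -0.29 ± 0.15, SE, limma adjusted p = 0.944).

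Between compounds, 6 pairs were tested at matched dose and hour, and no member was called in any of them without a term for replicate number. With that number as a block, members were called lower for 5G6 and for 6D7 against 7F8, as given at the end. The values that follow are without it. At 48 h the log2 differences of 5G6 from 7F8 had a member median of -0.21 beside 0.10 for all genes. Of the 77 members, 74 lay below 0 (77 with median-of-ratios scaling), while 63.9% of all genes lay above 0. Both 5G6 libraries lay below both 7F8 libraries for 52 members, against 10.4% of all genes, while percent called over all genes was 0.288. RPL12 had the smallest p of the members, with a log2 difference of -0.65 ± 0.14 (SE, limma adjusted p = 0.0932), followed by RPS2 at -0.59 ± 0.14 (SE, limma adjusted p = 0.134) and RPL36 at -0.56 ± 0.18 (SE, limma adjusted p = 0.273). Without 5G6 48 h replicate 2 the median was -0.16, and without 5G6 48 h replicate 1 it was -0.31. The 95% interval stayed within a 2-fold change for 76 members, all but RPL28, and 13 members had an unadjusted p below 0.05, all lower with 5G6, against 9.11% of all genes in either direction. For 6D7 against 7F8 at 48 h the median was -0.16 (-0.02 without 6D7 48 h replicate 2), beside 0.11 for all genes. In that comparison 33 members lay below in both libraries, against 11.2% of all genes, and 0.489% of all genes were called. Unadjusted p-values below 0.05 were found there for 6 members, against 12.7% of all genes. RPL12 again had the smallest p there (log2 difference -0.56 ± 0.14, SE, limma adjusted p = 0.119). For 5G6 against 6D7 at 48 h the median was -0.07, beside 0.003 for all genes. Here 10 members lay below in both libraries, against 11.1% of all genes, and 1 above, against 9.91%. No member had an unadjusted p below 0.05, against 2.13% of all genes, and 0.00627% of all genes were called. The interval stayed within a 2-fold change for 76 members, all but RPL34. At 4 h the medians were -0.07 for 5G6 against 6D7, -0.11 for 5G6 against 7F8 and -0.06 for 6D7 against 7F8. Those of all genes were 0.10, 0.22 and 0.12. In the same order 0, 2 and 0 members had an unadjusted p below 0.05, against 1.19%, 10.03% and 5.77% of all genes. Percent called over all genes was 0, 0.00627 and 0. At that hour both libraries of 5G6 lay below both of 6D7 for 4 members, against 6.14% of all genes, and above for 0, against 18.4%. Both libraries of 5G6 lay below both of 7F8 for 22 members, against 6.37% of all genes, and above for 0, against 33.6%. Both libraries of 6D7 lay below both of 7F8 for 25 members, against 8.68% of all genes, and above for 2, against 24.8%. The members with an unadjusted p below 0.05 at 4 h were RPS2 (log2 difference -0.40 ± 0.14, SE, limma adjusted p = 0.434) and RPS3 (-0.32 ± 0.14, SE, limma adjusted p = 0.489), for 5G6 against 7F8.

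The members named for a further role or place in the ribosome were not called. RPL5 and RPL11, which with 5S rRNA bind MDM2 and so connect ribosome assembly to p53, had log2 differences at 48 h of -0.23 and -0.11 with 5G6, -0.13 and -0.11 with 6D7, and -0.05 and 0.05 with 7F8. RPS6, the substrate of the kinases downstream of mTORC1, had 3808 and 3888 TPM with 7F8 at 48 h, against 3965 and 3428 TPM with DMSO, and overlapped it. RPS27A, made as a fusion with ubiquitin, had 1865 and 2120 TPM with 7F8, against 2111 and 1944 TPM with DMSO, and also overlapped it. RPL10, among the last proteins to join the large subunit, had 2031 and 1816 TPM with 7F8, 1916 and 1563 TPM with 5G6 and 2333 and 1567 TPM with 6D7 at 48 h, against 1540 and 1404 TPM with DMSO. All 6 libraries of compounds lay above DMSO, with limma adjusted p-values of 0.248 with 7F8, 0.576 with 5G6 and 0.285 with 6D7. RPS4X had 1632 and 1706 TPM with 7F8, against 1294 and 1361 TPM with DMSO (limma adjusted p = 0.240), and RPS27 had 4792 and 4213 TPM, against 3951 and 2558 TPM with DMSO, whose libraries were far apart (limma adjusted p = 0.291). RPSA, also known as the laminin receptor, had 1854 and 1872 TPM with 5G6 at 48 h, against 2406 and 2298 TPM with DMSO (log2 difference -0.34 ± 0.15, SE, limma adjusted p = 0.249). RPL36A, which shares sequence with RPL36AL and a readthrough locus, had 1552 and 1466 TPM with 7F8 at 48 h, against 1496 and 1272 TPM with DMSO.

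The members were also split by whether a listed start held the tract, as a description. The median log2 difference with 7F8 at 48 h was 0.14 over the 46 members with the tract, 0.01 over the 16 without and 0.16 over the 15 with no promoter entry. For DMSO at 48 h against 4 h the medians were -0.21, -0.18 and -0.18 over the same 3 sets of genes. These medians describe annotated starts, which can differ from the starts used in A549 cells.

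The list of 10 paralogs and ubiquitin fusions of ribosomal proteins held 1 gene that fell with every compound at 48 h, RPL39L. Its 7 other tested members were not called. Over all genes 2.11% were called lower with 5G6, 3.58% with 6D7 and 6.5% with 7F8. RPL39L is a paralog of RPL39, whose product lines the exit tunnel, and it is known mainly from testis and from tumours. It had 22.3 and 33.3 TPM with 5G6, 21.2 and 31.1 TPM with 6D7 and 16.3 and 17.7 TPM with 7F8, against 68.7 and 55.8 TPM with DMSO at 48 h. The 6 libraries of compounds all lay below DMSO, and the log2 differences were -1.15 ± 0.26 with 5G6 (SE, limma adjusted p = 0.0327), -1.24 ± 0.26 with 6D7 (SE, limma adjusted p = 0.0205) and -1.81 ± 0.26 with 7F8 (SE, limma adjusted p = 0.00416). RPL39 itself had 3115 and 2991 TPM with 7F8, 2953 and 2230 TPM with 5G6 and 3223 and 2320 TPM with 6D7, against 2853 and 2315 TPM with DMSO, and was not called. RPL39L thus made up 0.521% and 0.588% of the summed TPM of the pair with 7F8 at 48 h, against 2.35% in both DMSO libraries. The 7F8 call on RPL39L was lost without DMSO 48 h replicate 1 (limma adjusted p = 0.0674) and without 7F8 48 h replicate 1 (limma adjusted p = 0.0528). The 5G6 call was lost without any one of its 4 libraries and with median-of-ratios scaling (-1.05, limma adjusted p = 0.0556). The 6D7 call was lost without either DMSO library (limma adjusted p = 0.178 without replicate 1, 0.0571 without replicate 2) and without 6D7 48 h replicate 1 (limma adjusted p = 0.167). Both of these calls were also lost with mitochondrial transcripts kept and with the 48 h libraries alone, and the 5G6 call with no filter.

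RPL22L1, the paralog of RPL22, was also low in the libraries of compounds at 48 h but was not called. It had 29.9 and 33.3 TPM with 5G6, 27.8 and 42.1 TPM with 6D7 and 39.3 and 39.2 TPM with 7F8, against 74.6 and 53.4 TPM with DMSO. The limma adjusted p was 0.0556 with 5G6, 0.0697 with 6D7 and 0.125 with 7F8. RPL22 had 271 and 299 TPM with 5G6, 280 and 288 TPM with 6D7 and 292 and 334 TPM with 7F8, against 329 and 334 TPM with DMSO. RPL26L1 had log2 differences at 48 h of -0.41 with 5G6, -0.45 with 6D7 and -0.37 with 7F8, with limma adjusted p-values of 0.191, 0.130 and 0.188. RPL36AL lay on the other side, with 850 and 658 TPM with 5G6, against 580 and 505 TPM with DMSO (limma adjusted p = 0.387). FAU, whose ribosomal protein is made as a fusion with a ubiquitin-like protein, was not called. RPL10L was listed at 0 in every library, and RPL3L, a paralog of muscle, was at most 0.722 TPM.

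**Figure D5:**
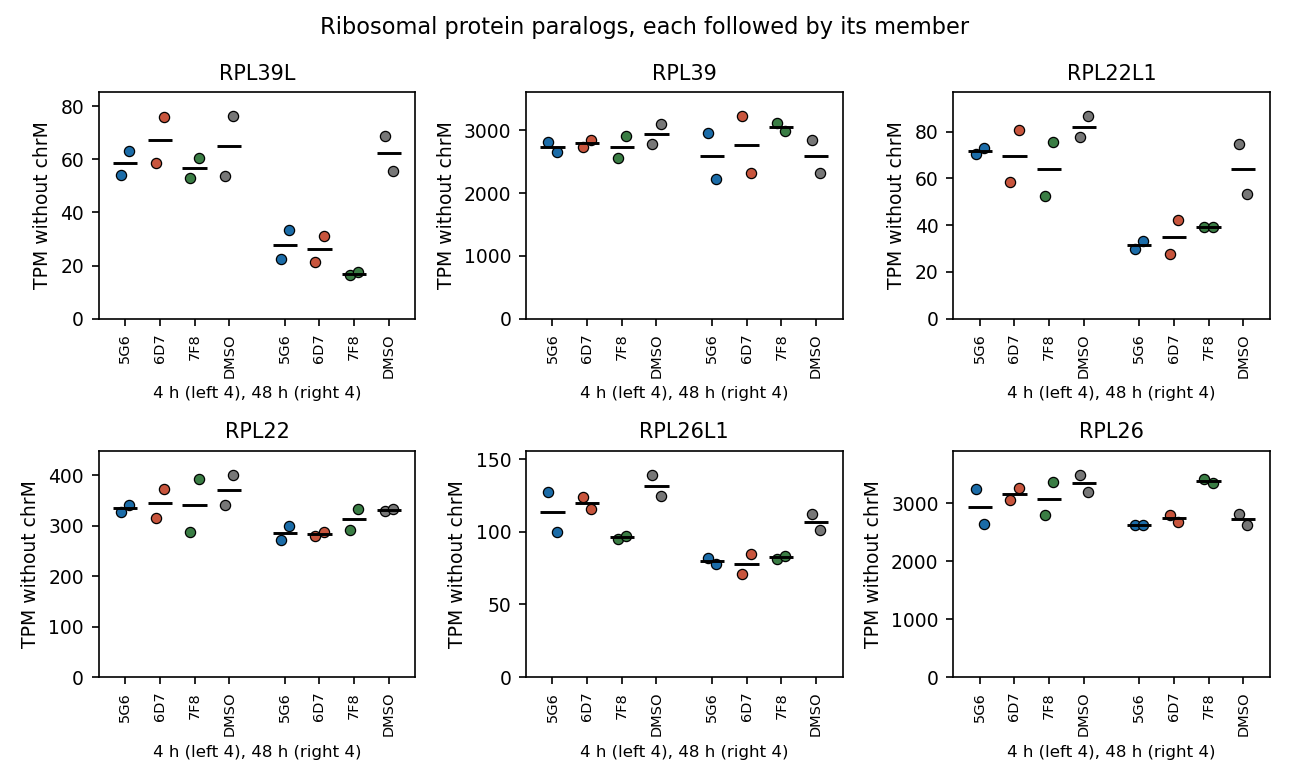
TPM without mitochondrial transcripts (vertical axes from 0) of 3 paralogs, RPL39L, RPL22L1 and RPL26L1, each followed by the member it resembles; points are libraries and black lines group means, with the compounds left of DMSO at each hour. RPL39L is at 33.3 TPM or less in all 6 libraries of compounds at 48 h and at 55.8 TPM or more in the DMSO libraries of that hour, while RPL39 overlaps between 5G6 or 6D7 and DMSO.

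Other messages that are known to start with a TOP tract were mostly not called. Of 17 translation factors and related messages, 1 fell with 5G6 at 48 h. With 6D7, 1 rose and 1 fell, and with 7F8, 1 rose. Over all genes 2.11% were called lower with 5G6, 2.39% higher and 3.58% lower with 6D7, and 2.29% higher with 7F8. The list medians were -0.15, 0.02 and -0.11, beside -0.07, -0.06 and -0.18 for all genes. TPT1, the translationally controlled tumour protein, had 1126 and 746 TPM with 6D7 and 1143 and 930 TPM with 7F8, against 545 and 561 TPM with DMSO. It rose by 0.73 ± 0.19 on the log2 scale with 6D7 (SE, limma adjusted p = 0.0415) and by 0.90 ± 0.19 with 7F8 (SE, limma adjusted p = 0.0145). HNRNPA1, a splicing regulator, had 813 and 843 TPM with 5G6 and 932 and 709 TPM with 6D7, against 1441 and 1256 TPM with DMSO. Its log2 difference was -0.70 ± 0.17 with 5G6 (SE, limma adjusted p = 0.0446) and -0.73 ± 0.17 with 6D7 (SE, limma adjusted p = 0.0326). EEF1A1, the main elongation factor that brings tRNA to the ribosome, had 5872 and 6960 TPM with 7F8 at 48 h, against 4185 and 4949 TPM with DMSO (log2 difference 0.49, limma adjusted p = 0.219). The TPT1 call with 7F8 was lost without either DMSO library (limma adjusted p = 0.104 and 0.0643) and without 7F8 48 h replicate 1 (0.151), and that with 6D7 without either DMSO library (0.219 and 0.130) and without 6D7 48 h replicate 1 (0.283). The HNRNPA1 call with 5G6 was lost without any one of the 4 libraries (limma adjusted p between 0.0960 and 0.289), and that with 6D7 without either DMSO library (0.226 and 0.0770) and without 6D7 48 h replicate 2 (0.0923). With the 48 h libraries alone all 4 of these calls were lost, and with median-of-ratios scaling, FPKM, no filter or no variance trend those on TPT1 with 6D7 and on HNRNPA1 with both compounds, HNRNPA1 also with mitochondrial transcripts kept.

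Of 10 small nucleolar RNA host genes listed as TOP messages, C6orf48 rose with 6D7 at 48 h and SNHG1 fell with 7F8. Over all genes 2.39% were called higher with 6D7 and 6.5% lower with 7F8. At their listed RefSeq starts SNHG1, GAS5, SNHG8, SNHG16 and SNHG29 lacked the tract, while C6orf48, SNHG5, SNHG12 and ZFAS1 held it. C6orf48, the symbol the files use for SNHG32, had 404 and 266 TPM with 6D7, against 189 and 175 TPM with DMSO (log2 difference 0.85 ± 0.20, SE, limma adjusted p = 0.0305). SNHG1 had 46.2 and 48.0 TPM with 7F8, against 199 and 84.3 TPM with DMSO, whose libraries differed by more than 2-fold (log2 difference -1.44 ± 0.40, SE, limma adjusted p = 0.0453). The SNHG1 difference was -0.83 without DMSO 48 h replicate 1 (limma adjusted p = 0.296), and the call was also lost without 7F8 48 h replicate 1 (0.219) or replicate 2 (0.118). The C6orf48 call was lost without either DMSO 48 h library (limma adjusted p = 0.153 and 0.132) and without 6D7 48 h replicate 1 (0.221). Both calls were also lost with median-of-ratios scaling, with FPKM, with no variance trend and with the 48 h libraries alone, and the SNHG1 call with no filter.

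None of the 16 genes of mTORC1 and its arm to TOP messages was called against DMSO at either hour. At an unadjusted p below 0.05, limma had 1 of them with 5G6, 0 with 6D7 and 1 with 7F8 at 4 h, and 1, 3 and 2 at 48 h, against 3.25%, 1.13% and 5.43% of all genes at 4 h and 19.0%, 21.5% and 24.6% at 48 h. EIF4EBP1, the inhibitor of the cap-binding protein eIF4E, had 114 and 128 TPM with 7F8 and 400 and 251 TPM with 6D7 at 48 h, against 235 and 197 TPM with DMSO. The log2 difference from DMSO was -0.83 ± 0.24 with 7F8 (SE, limma adjusted p = 0.0561) and 0.56 ± 0.24 with 6D7 (SE, limma adjusted p = 0.210), and 6D7 was above 7F8 by 1.38 ± 0.24 (SE, limma adjusted p = 0.0358). This call was lost without 6D7 48 h replicate 1 (limma adjusted p = 0.162), without 7F8 48 h replicate 1 (0.275) or replicate 2 (0.0804), and with median-of-ratios scaling (1.26, limma adjusted p = 0.0827). It was also lost with FPKM (limma adjusted p = 0.0538), no filter (0.0575), no variance trend (0.0535) and the 48 h libraries alone (0.173). Of 5 transcription factors known to bind ribosomal protein promoters, MYC was called lower with 7F8 at 48 h, where 6.5% of all genes were. GABPA, YY1, SP1 and MAX were not called. MYC had 23.9 and 25.7 TPM with 7F8 at 48 h, against 67.9 and 63.2 TPM with DMSO, and fell by 1.37 ± 0.33 on the log2 scale (SE, limma adjusted p = 0.0266). The MYC call was lost without any one of the 4 libraries (limma adjusted p between 0.0749 and 0.174) and with median-of-ratios scaling (-1.16, limma adjusted p = 0.0780), no filter or the 48 h libraries alone.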

How the data were processed

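Per the labels' protocols, polyadenylated RNA was sequenced from 16 A549-CD63-Nluc libraries (8 groups of 2). STAR 2.6.1a, featureCounts 1.6.3, StringTie 2.0 and GRCh38 are named in the submitters' processing notes, and the deposited gene tables hold TPM, FPKM and coverage per gene, per the file headers. Strand handling is not given in the sources used here, so overlapping antisense genes were not separated. TPM was summed per gene name, chrM rows were dropped and the rest rescaled to a constant sum (pandas 2.3.3). A gene entered the fit when 2 or more libraries reached 1 TPM, and log2(TPM + 1) was fitted with limma 3.58.1 (R 4.3.3) over all 16 libraries, 8 group means and a variance trend, with 8 residual degrees of freedom. Two-sided p-values were corrected with the Benjamini-Hochberg method separately for the 16 comparisons (7 against DMSO or over time, 6 between compounds, 3 of 48 h minus 4 h effects). A fold change on this scale understates the change of low genes. The code was tested on simulated data. With 2 against 2 libraries a permutation test could not reach 0.05, and none was used. Deposited FPKM and coverage served as alternatives. The members and gene lists were chosen with earlier results of these data known, so no list has a test. Genes are named by role, by smallest p, by widest and narrowest range and by call, and RPS28, RPL36, RPS19, RPL13A, RPS16, RPL27A, EEF1A1, EIF4EBP1 and the uncalled paralogs were added after their values were seen. Promoter sequences are from RefSeq (GRCh38.p14). Values of 1 member and of 1 gene of the paralog list are not reported here.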

Additional observations from a re-analysis of the deposited data

Results flagged for a closer look

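RPL37 lay below DMSO in every library of the compound at 4 h and above DMSO in every library of the compound at 48 h, with each compound. The log2 difference from DMSO at 48 h minus that at 4 h was 0.36 ± 0.26 with 5G6 (SE, limma adjusted p = 0.771), 0.68 ± 0.26 with 6D7 (SE, limma adjusted p = 0.535) and 0.65 ± 0.26 with 7F8 (SE, limma adjusted p = 0.492), none of which passed the threshold. All of these differences share the DMSO libraries, in which RPL37 had 221 and 195 TPM at 48 h and 275 and 316 TPM at 4 h. The ratio of coverage to FPKM of RPL37 ranged over 0.52 on the log2 scale between libraries, and its part in the difference was not tested.

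MYC lay above DMSO in both libraries of 6D7 and of 7F8 at 4 h and below DMSO in both at 48 h. The difference of the log2 differences was -1.11 ± 0.47 with 6D7 (SE, limma adjusted p = 0.594) and -1.66 ± 0.47 with 7F8 (SE, limma adjusted p = 0.337), neither of which passed the threshold.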

How the results depend on the processing

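No result reversed a call. With the replicate number as a block, 1 member was called lower with 5G6 and 1 with 6D7 at 48 h, 4 were called higher with 7F8 at 48 h, 2 lower for 5G6 against 7F8 and 1 lower for 6D7 against 7F8. Calls over all 15958 genes tested are counted here in either direction. With the block they rose at 48 h to 1709 with 5G6 (648 without it), 2000 with 6D7 (953) and 2721 with 7F8 (1403). The replicate numbers mark no shared batch in the labels. Same-numbered libraries deviated together over 28 pairs of groups (25 with r above 0.1). For groups of the same hour r was between 0.355 and 0.588, and across hours between 0.0536 and 0.336. Whether same-numbered libraries share a culture or batch is not given, and 2 replicate numbers cannot settle it. For 7F8 at 48 h, the count called higher was 0 with mitochondrial transcripts kept, with no filter, with no variance trend and with the 48 h libraries alone, 2 with at least 1 TPM in all libraries, 2 with coverage in place of TPM, and 3 with median-of-ratios scaling and the block. The count called lower was 0 with FPKM, with mitochondrial transcripts kept, with no trend, with the 48 h libraries alone and with median-of-ratios scaling, with or without the members and the block. Leaving out 1 library gave 0 to 1 higher and 0 lower with 7F8, and 0 to 2 higher with 6D7 at 48 h. With mitochondrial transcripts kept, 5 members were called higher with 6D7 and 1 for 6D7 against 7F8 at 48 h, and the 6D7 median was 0.39. Those transcripts took 6.13% and 6.48% of TPM in the 6D7 48 h libraries, and more in the DMSO and 7F8 libraries of that hour. Keeping them scales every other gene up with 6D7, so these counts and this median do not single out the members. Among the alternatives, counts over all genes are given only for the block against DMSO at 48 h. The other member counts stand without that background. Coverage called 1 member lower with 5G6 at 48 h. Median-of-ratios scaling gave member medians of -0.24 with 5G6 at 4 h (-0.25 without the members, -0.24 with the block), -0.012 with 5G6 at 48 h (-0.013 and -0.012), 0.34 with 7F8 at 48 h (0.35 and 0.34) and -0.38 for DMSO at 48 h against 4 h (-0.38 and -0.38), where FPKM gave -0.34 and mitochondrial transcripts kept gave -0.28. Leaving out 1 library gave medians of -0.10 to -0.00072 with 6D7 at 4 h, 0.0496 to 0.24 with 7F8 at 48 h and -0.27 to -0.14 for DMSO at 48 h against 4 h. Among single genes, 101 values lost a call under an alternative and 17 gained one. A further 63, called in neither fit, changed sign and differed by more than 1 SE, and 4034 did none of these. The cause was not tested. Where a library was left out, the single one left was assumed to vary like the other groups. The median-of-ratios scaling without the members, the block with it and the coverage alternative were chosen after seeing the data. Depth is known only through coverage, so no counting intervals were given.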
